A study of Mus musculus with 6 samples.

Results

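Osteoclasts of the fracture callus were taken as the barcodes that carried both the cell fusion genes and the matrix digestion genes of this cell type. In each library, a barcode with at least 2000 unique molecular identifiers (UMIs) and at most 10% mitochondrial UMIs was counted as an osteoclast when Atp6v0d2, Ocstamp and Dcstamp together reached 5 UMIs and Acp5 and Ctsk together reached 20 UMIs. This gave 1553 osteoclasts among 33449 barcodes that passed the filter and 46944 barcodes in all. Single-cell RNA-seq was performed on the callus of femoral fractures 14 days post-fracture (dpf) in 12-week-old mice, with 3 libraries in the control group (CON) and 3 in the knockout group (CKO). CON mice are labelled wt, and by the study's methods they carried the floxed Piezo1 f/f alleles without Cre. CKO samples are labelled Col2CreERT; Piezo3-/-, whereas the series design writes Col2CreERT; Piezo1-/- and the study's methods describe Col2a1CreERT2; Piezo1 f/f mice. Both groups are described as having received tamoxifen at 75 mg per kg for 5 days, starting at day 5 after fracture. The Col2a1 promoter drives the tamoxifen-inducible Cre in chondrocytes, so that osteoclasts are not the cell in which recombination was induced.

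Osteoclasts are the bone-resorbing cells of the skeleton. They arise from myeloid precursors under the cytokines M-CSF and RANKL, which bind Csf1r and RANK (Tnfrsf11a), and RANK signalling together with ITAM adaptors raises the transcription factor Nfatc1. The precursors leave the cell cycle and fuse into large cells with many nuclei, which seal a patch of mineral with integrin-based podosomes, acidify it with a vacuolar proton pump (V-ATPase) and digest the matrix with cathepsin K and metalloproteinases. In a healing fracture they take part in the removal of calcified cartilage and in the remodelling of the new bone. Droplets take up cells of limited size, so the largest osteoclasts of the tissue need not be among the recovered ones.

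The libraries were not alike. CON1, CON2 and CON3 held 69361237, 77384286 and 80735192 UMIs in all, and CKO1, CKO2 and CKO3 held 57626530, 103784364 and 102513582. Osteoclasts numbered 50, 120 and 351 in the CON libraries and 26, 722 and 284 in the CKO libraries, so that CKO2 alone supplied the most members and CKO1 the fewest. Xist, the transcript that silences an X chromosome in female cells, was at 365 counts per 1000000 UMIs (CPM) in the osteoclasts of CKO3 and at 0.403 CPM or less in those of the other 5 libraries. Ddx3y, a gene of the Y chromosome, had no UMI in CKO3 osteoclasts, where 3 counts would be 0.376 CPM, and stood between 36.0 and 88.5 CPM in the others. The study's methods call the mice male, so CKO3 goes against that description, and the shares, the number of genes past the threshold and the log2 fold changes of CKO over CON of the genes named one by one are given also without this library. At least 20 UMIs of C1qa, C1qb and C1qc were carried by 9 of 50, 10 of 120 and 9 of 351 osteoclasts in CON1, CON2 and CON3 and by 9 of 26, 56 of 722 and 19 of 284 in CKO1, CKO2 and CKO3. Either that, or at least 50 UMIs of S100a8 and S100a9, 5 of Cd79a and Cd79b, 5 of Cdh5 and Pecam1 or 3 of Cd3e, Cd3d and Trbc2, was found in 20%, 16.7% and 7.41% of CON and 34.6%, 19.9% and 14.8% of CKO osteoclasts. CKO1 stood apart in level: the summed level of 17 C1q macrophage genes was 9790 CPM in its osteoclasts against 1455 to 2293 CPM in those of the other libraries. The most abundant gene of that list was Apoe, at 4961 CPM in CKO1 and 808 to 1432 CPM elsewhere. The same sum in neutrophils, which should lack these genes, was 1969 CPM in CKO1 and 620 to 891 CPM elsewhere. Neutrophils were taken by at least 50 UMIs of S100a8 and S100a9, a UMI of Csf3r and at most 2 UMIs of C1qa, C1qb and C1qc. That limit holds down their sum, since these C1q genes are in the list. Libraries shared at most 36 barcodes, or 0.383% of the smaller library.

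Piezo1, the mechanosensitive cation channel that the knockout targets, was at 73.1, 55.3 and 87.0 CPM in CON osteoclasts and at 122, 59.1 and 51.9 CPM in CKO osteoclasts, and the groups overlapped. The log2 fold change was 0.09 with an SE of 0.31, and it was 0.28 without CKO3, -0.23 without CKO1 and -0.04 without CON2. These values are not a check of the deletion, because the Cre is not driven in this cell, and a 3′ tag outside the deleted exons, which are not given in the sources used here, would still be counted.

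All 6 marker genes were far above their level in C1q macrophages. These were taken by at least 20 UMIs of C1qa, C1qb and C1qc, a UMI of Csf1r and at most 1 UMI of the 3 fusion genes (2438 barcodes). The first 5 markers chose the cells, and their levels are a description. Acp5, which encodes the tartrate-resistant acid phosphatase used to stain osteoclasts (chromosome 9, 22126727 to 22135711, minus strand), was at 4976, 6483 and 6971 CPM in CON and at 8230, 8239 and 7633 CPM in CKO osteoclasts. All 3 CKO values lay above all 3 CON values, and in macrophages the gene stood between 109 and 461 CPM. Ctsk, the collagen-degrading cathepsin K (chromosome 3, 95499256 to 95509362, plus strand), was at 3796, 7145 and 6050 CPM in CON and at 5949, 5271 and 6218 CPM in CKO. CON1 was the lowest library for both genes. Atp6v0d2, the d2 subunit of the proton pump that is also needed for fusion (chromosome 4), was at 857, 1052 and 926 CPM in CON and at 835, 778 and 820 CPM in CKO, so that the CKO values were all lower. Ocstamp and Dcstamp, membrane proteins of osteoclast fusion on chromosomes 2 and 15, ranged from 185 to 282 CPM and from 129 to 236 CPM, and their groups overlapped. Dcstamp had no UMI in the macrophages of CON2 and CKO1, where 3 counts would be 0.926 and 1.13 CPM.

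Mmp9, a gelatinase of the resorbing front and the only marker outside the rule, was at 2637, 4506 and 2881 CPM in CON osteoclasts and at 4454, 3120 and 2382 CPM in CKO osteoclasts. In macrophages it was at 24.1 to 66.6 CPM in 5 libraries and at 248 CPM in CKO2. Neutrophils also make this gene, and after thinning every barcode to 2000 UMIs a UMI of Mmp9 was found in 74.3% of osteoclasts, 72.1% of neutrophils and 16.4% of macrophages. The macrophage share was 32.5% in CKO2 and 2.67% to 10.9% in the other libraries. Mmp9 was thus higher in osteoclasts than in macrophages in all 6 libraries although the rule had not used it, while its share alone does not tell osteoclasts from neutrophils.

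**Figure D1:**
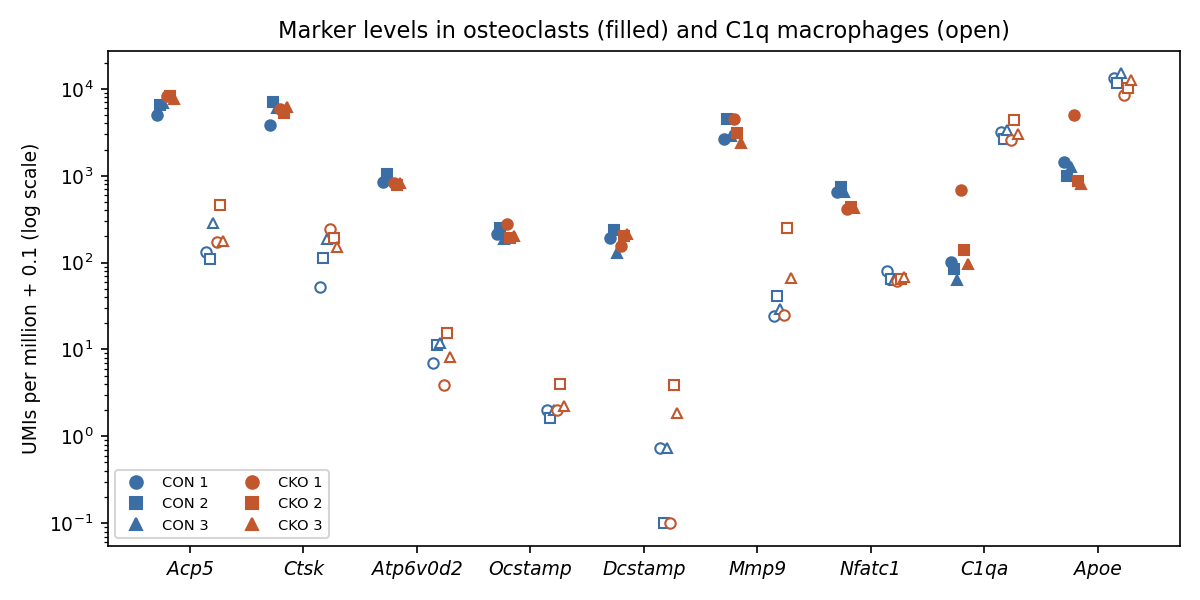
Level of 9 genes (CPM plus 0.1, log scale) in the summed osteoclasts (filled) and C1q macrophages (open) of each of the 6 libraries, CON in blue and CKO in orange. Every filled point of Mmp9 lies at or above 2382 CPM and every open one at or below 248 CPM, and the C1qa and Apoe levels of CKO1 osteoclasts stand apart from those of the other libraries.

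The promoters of Acp5, Ctsk and a pump subunit are shown because Acp5 and Ctsk are markers that the rule used and Nfatc1 and PU.1 are known regulators of osteoclast genes. The 250 bases before the start of transcription are printed from RefSeq (build GRCm38.p6), 5′ to 3′ on the strand of the gene. The first start listed for a gene was used, and any other start was not searched. Of the 6 markers, only Acp5 and Ctsk had a window. Capitals mark the core of NFAT sites, GGAAA, in Acp5 and Atp6v1d, and a core of PU.1 sites, GAGGAA, in Ctsk, where the second match is on the other strand. Acp5 held no GAGGAA and Ctsk no GGAAA, and Atp6v1d also held 1 GAGGAA, which is not in capitals. Both strands were searched, and the motifs can overlap where GAGGAA is followed by A. GGAAA was present in 55.6% and GAGGAA in 23.1% of the same windows of 27025 genes, so that a match is frequent by itself. Acp5 lies at chr9:22135747-22135996 (minus strand), Ctsk at chr3:95498960-95499209 (plus strand) and Atp6v1d at chr12:78861639-78861888 (minus strand).
Acp5: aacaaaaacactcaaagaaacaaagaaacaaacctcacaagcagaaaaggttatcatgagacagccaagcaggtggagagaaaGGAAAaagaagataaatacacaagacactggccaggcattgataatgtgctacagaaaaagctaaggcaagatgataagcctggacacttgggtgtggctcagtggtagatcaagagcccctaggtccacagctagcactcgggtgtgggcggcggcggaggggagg
Ctsk: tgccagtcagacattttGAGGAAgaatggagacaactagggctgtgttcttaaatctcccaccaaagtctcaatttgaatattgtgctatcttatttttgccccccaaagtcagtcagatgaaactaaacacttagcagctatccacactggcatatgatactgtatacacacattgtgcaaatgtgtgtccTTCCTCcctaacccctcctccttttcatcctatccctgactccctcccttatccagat
Atp6v1d: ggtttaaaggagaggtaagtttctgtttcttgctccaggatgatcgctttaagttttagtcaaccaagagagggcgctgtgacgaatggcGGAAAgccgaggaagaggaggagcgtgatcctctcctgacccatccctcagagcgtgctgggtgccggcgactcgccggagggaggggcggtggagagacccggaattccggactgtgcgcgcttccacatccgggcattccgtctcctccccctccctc
Of 19 V-ATPase subunit genes with a window in this table, 12 held GGAAA and 3 held GAGGAA. The E-box CACGTG, the site of Mitf and related factors, was found in 2 of the 19, Atp6v0b and Atp6v1a, and in 6.05% of all windows. The M-box CATGTG, another site of Mitf, was found in 0 of the 19 and in 12.2% of all windows.

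Against C1q macrophages of the same library, osteoclasts were higher by a log2 ratio over 1 in all 6 libraries for 260 of 9253 genes (2.81%) and lower for 389 (4.2%). The genes had at least 10 CPM on average in either class, and the ratio was taken with a pseudocount of 1 CPM. Both classes were defined by genes of this contrast, so it was described without a test. Without CKO1, whose osteoclasts had the highest summed level of C1q macrophage genes, 337 genes were higher and 737 lower. With osteoclasts carrying neutrophil, B lineage, endothelial or T cell UMIs removed, 275 were higher and 452 lower. Osteoclasts carrying C1q UMIs were kept in that count, so all 26 of CKO1 remained. Of 16 resorption genes, 8 were higher in every library and none was lower, with a median log2 ratio of 1.21 over the list against -0.07 over all genes. Acp5 and Ctsk belong to the rule, and the other 6 were Mmp9, Car2, Tcirg1, Slc4a2, Slc9b2 and Snx10. Car2 encodes the carbonic anhydrase that provides protons for the pump, and stood at 171, 222 and 187 CPM in CON and 132, 224 and 183 CPM in CKO osteoclasts. In macrophages it was at 43.7 CPM in CKO3 and at 13.9 CPM or less in the other libraries. Slc9b2, a sodium-proton exchanger, was between 185 and 309 CPM in osteoclasts and at most 7.02 CPM in macrophages, a median log2 ratio of 5.89. Slc4a2, the exchanger that brings in chloride for bicarbonate, and Snx10, a sorting nexin of the ruffled border whose loss causes osteopetrosis, had median log2 ratios of 2.27 and 2.29. The lysosomal proteases Ctsb and Ctsd were different, with median log2 ratios of -2.14 and -1.78. CKO1 was the exception for both, with log2 ratios of 0.01 and 0.98.

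Subunits of the V-ATPase were mostly higher in osteoclasts, with exceptions among alternative isoforms. Of 25 subunit genes, 18 reached 10 CPM, 9 of these were higher in osteoclasts in every library and none was lower, and the median log2 ratio was 1.40. Atp6v0d2, in the rule, had the largest ratio. The ubiquitous d subunit, Atp6v0d1, was at 103 to 166 CPM in osteoclasts and had a median log2 ratio of -0.35. Tcirg1, the a3 subunit that carries the pump to the ruffled border, was at 442, 485 and 410 CPM in CON and 473, 417 and 353 CPM in CKO osteoclasts, and at 140 to 196 CPM in macrophages. Atp6v0a1, another isoform of the same a subunit, ran the other way, at 6.27 to 10.2 CPM in the osteoclasts of 5 libraries and 50.7 CPM in CKO1, against 62.2 to 83.7 CPM in macrophages. In the sector that hydrolyses ATP, Atp6v1b2 and Atp6v1d had median log2 ratios of 2.02 and 2.05, and Atp6v1b1, the isoform of kidney and inner ear, had no UMI in either class, where 3 counts would be 0.164 to 3.24 CPM in osteoclasts. Atp6v1a and Atp6v0c had median log2 ratios of 1.57 and 1.43, but fell short of 1 in CKO3 (0.96) and in CKO1 (0.91).

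Of 9 RANK and ITAM receptor genes with 10 CPM, Oscar was higher in every library and none was lower, while the median log2 ratio of the list was -0.67, below the -0.07 of all genes. Oscar, a collagen receptor that gives the costimulatory signal through Fcer1g, was at 18.6, 64.9 and 30.6 CPM in CON and at 71.2, 51.8 and 46.5 CPM in CKO osteoclasts, with at most 2.53 CPM in macrophages. Tnfrsf11a, which encodes RANK, was at 150, 146 and 128 CPM in CON and at 104, 90.5 and 102 CPM in CKO osteoclasts, with 54.9 to 68.7 CPM in macrophages. Csf1r and the adaptor Tyrobp were close in both classes, with median log2 ratios of -0.34 and -0.05. Calcr, the calcitonin receptor of the mature cell, was at 1.93 to 15.7 CPM, and a UMI of it was found in 88 of 1552 osteoclasts (5.67%) and in 0 of 2438 macrophages, whose barcodes were shallower. At an equal depth of 2000 UMIs per barcode, 13 osteoclasts (0.838%), 0 macrophages and 2 of 2008 neutrophils (0.0996%) had one. A count of 0 allows up to 0.123% of macrophage barcodes with a UMI at that depth, which is no limit on the share of macrophages that express the gene. None of the 14 kinases and adaptors of RANK signalling passed a log2 ratio of 1 in every library.

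Among 19 measured transcription factors of the lineage, Nfatc1, Jdp2, Mitf, Ppargc1b and Prdm1 were higher in osteoclasts in every library, and Jun was lower. Nfatc1, the master regulator of osteoclast differentiation, was at 657, 747 and 649 CPM in CON and at 409, 436 and 427 CPM in CKO osteoclasts, and at 61.1 to 79.1 CPM in macrophages. Its groups did not overlap in osteoclasts. Prdm1 (Blimp1) represses the inhibitors of osteoclastogenesis, and it was at 226, 215 and 177 CPM in CON and 177, 115 and 101 CPM in CKO. Of 10 repressors of the osteoclast programme, 4 were lower in osteoclasts in every library, Irf8 and Lyn among them, and none was higher. Irf8, a factor of the macrophage fate that holds back Nfatc1, was at 12.9 to 23.5 CPM in CON and at 41.0, 21.6 and 10.1 CPM in CKO osteoclasts, against 120 to 224 CPM in macrophages. CKO1 was the highest library, and the groups overlapped.

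The sealing zone and the energy supply were also represented. Of 21 adhesion and podosome genes, Itgav, Itgb3, Itga2, Src, Rac2 and Dock5 were higher in every library and none was lower. Itgb3 and Itgav encode the vitronectin receptor by which osteoclasts attach, and Src is the kinase without which they form no ruffled border. Src was at 161, 116 and 129 CPM in CON and at 90.6, 109 and 73.0 CPM in CKO osteoclasts, with a median log2 ratio of 2.89. Of 24 genes of mitochondrial respiration, 15 were higher in every library and none was lower, with a median of 1.42. Cyc1 of complex III was at 468, 483 and 454 CPM in CON and 263, 566 and 589 CPM in CKO, with a median log2 ratio of 2.10. Ckb, the brain-type creatine kinase, which hands phosphate to ATP-consuming sites, had a median log2 ratio of 3.16, and Ppargc1b, a coactivator of mitochondrial biogenesis, one of 3.72. Tfrc, the transferrin receptor that takes up iron for these enzymes, was at 417, 315 and 256 CPM in CON and at 234, 160 and 179 CPM in CKO osteoclasts, with a median log2 ratio of 2.44. The lysosomal membrane proteins Lamp1 and Lamp2 stood lower, with medians of -2.46 and -2.16, and with -0.60 and -0.98 in CKO1.

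Among the genes lower than in macrophages were 9 of 15 C1q macrophage genes, which chose the class compared, and 3 of 10 stress genes. All 5 measured MHC class II genes were lower in every library, and Cd74, the invariant chain, was at 142 to 635 CPM in osteoclasts and 1331 to 4520 CPM in macrophages. Of 10 interferon response genes 6 were lower and none higher, and of 12 chemokine and receptor genes 6 were lower, namely Cx3cr1, Ccr2, Ccl2, Ccl3, Ccl4 and Ccl6. Ccr2, the receptor by which monocytes leave the marrow, was at 1.08 to 11.4 CPM in osteoclasts and at 33.8 to 231 CPM in macrophages. Ccl9 went the other way, at 750 to 1297 CPM in osteoclasts with a median log2 ratio of 1.53. None of the 7 measured coupling factors, by which osteoclasts act on osteoblasts, was higher in every library, and Tnfsf11 (RANKL) stood at 0.443 to 8.69 CPM. C3 was the 1 coupling factor that was lower in every library.

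Apart from the genes of the rule, the 15 genes highest over macrophages among those with at least 50 CPM were Mmp9, Mt3, Slc9b2, Rufy4, Car2, Coq8a, Bdh2, Cyp2s1, Akap6, Kbtbd11, Chchd10, Scin, Ppargc1b, Nudt22 and Pheta1. Rufy4, an effector of Rab7 on lysosomes, was at 58.9 to 86.7 CPM and at most 2.23 CPM in macrophages. Mt3, a metallothionein, was at 320, 476 and 265 CPM in CON and at 446, 639 and 561 CPM in CKO osteoclasts, with a median log2 ratio of 6.31. Coq8a, of coenzyme Q synthesis, and Chchd10, a mitochondrial protein of the cristae, had medians of 4.83 and 4.01. The lowest were Cx3cr1, Mrc1, Fcrls, Ms4a6b, Fcgr1, Vcam1, Selenop, Ms4a4c, Pf4, P2ry6, Ly86, Ms4a6c, Cbr2, Aif1 and Pld4, with medians from -5.32 to -4.15. Many of these are genes of macrophages.

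**Figure D2:**
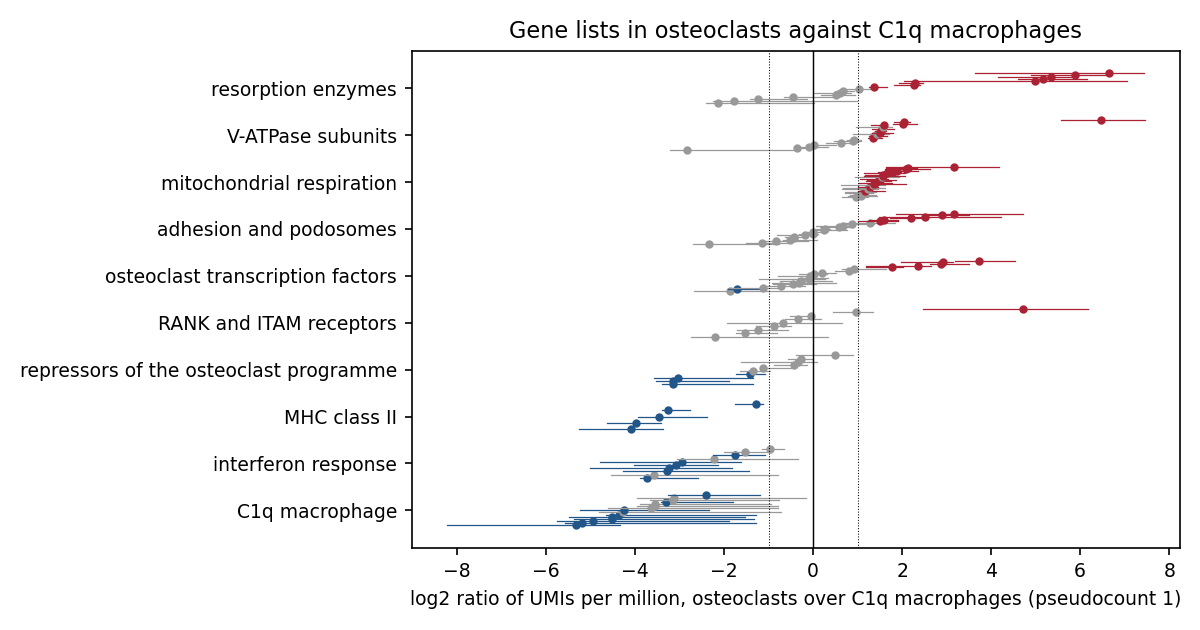
Log2 ratio of CPM between osteoclasts and C1q macrophages for the genes of 10 lists with at least 10 CPM, as the median (point) and range (line) over 6 libraries; red marks genes past 1 in every library, blue those past -1, grey the rest, and dotted lines stand at 1 and -1. V-ATPase and respiration genes lie mostly to the right (medians 1.40 and 1.42), and MHC class II and C1q macrophage genes to the left (medians -3.46 and -4.24).

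Osteoclasts were not uniform, and some carried transcripts of the cell cycle. After each barcode was thinned to 2000 UMIs, which left out 1 osteoclast, 357 of 1552 osteoclasts held at least 5 UMIs of 15 cell cycle genes. The shares were 18.0%, 14.2% and 21.4% in CON and 7.69%, 24.7% and 26.8% in CKO osteoclasts. In C1q macrophages they were 14.7%, 9.20% and 9.84% in CON and 6.84%, 18.0% and 14.1% in CKO, below the osteoclasts in each of the 6 libraries at this limit, with CKO1 resting on 2 osteoclasts. In neutrophils they were 13.5%, 26.1% and 41.9% in CON and 5.88%, 16.3% and 15.6% in CKO, above the osteoclasts in CON2 and CON3 and below them elsewhere. At 1 or more UMIs the order was not kept, since macrophages were above osteoclasts in CON3 (59.2% and 58.1%) and CKO1 (43.6% and 34.6%). The osteoclasts with at least 5 cell cycle UMIs, called cycling here by that limit alone, had a lower level of Mmp9 in all 6 libraries. Mmp9 was at 338, 316 and 858 CPM in the cycling CON osteoclasts and at 3384, 5318 and 3718 CPM in the remaining ones, and in CKO at 1625, 808 and 817 against 4763, 4023 and 3090 CPM. Ocstamp was at 62.1 to 98.1 CPM in cycling and at 235 to 303 CPM in remaining osteoclasts, and Ctsk at 1047 to 3266 against 4688 to 8219 CPM. Both are genes of the rule, which asks for a number of UMIs and so admits deeper barcodes at a lower CPM, and the cycling osteoclasts had the higher median UMI count in every library, as 60405 against 40781 in CON1. Their levels here, like those of Acp5, Atp6v0d2 and Dcstamp, are given as values only. Mmp9 is outside the rule but rose with the fusion genes over the osteoclasts of each library (Spearman's rho from 0.68 to 0.85). Its lower level is therefore not free of the rule and is a description too. Csf1r, the M-CSF receptor, was also lower in the cycling osteoclasts of every library (191 to 461 against 371 to 667 CPM). Nfatc1 was at 687, 569 and 551 against 647, 782 and 690 CPM in CON and at 264, 367 and 388 against 425, 463 and 446 CPM in CKO, lower in the cycling osteoclasts of 5 libraries and higher in CON1. Tnfrsf11a was lower in cycling osteoclasts in 4 libraries and higher in CKO1 and CKO2. C1qa was not higher in cycling osteoclasts than in the others except in CKO2 and CKO3, by 147 against 138 and 106 against 93.1 CPM.

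**Figure D3:**
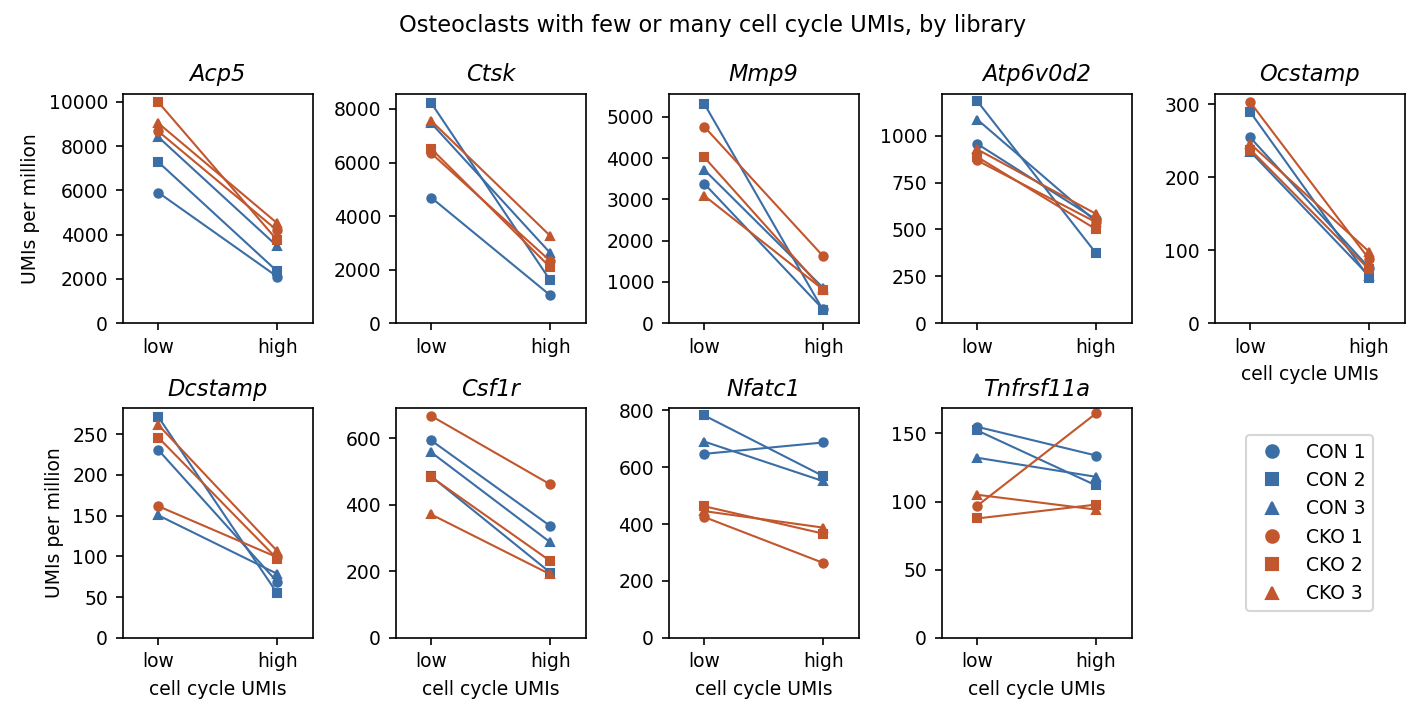
Level (CPM, each axis from 0) of 9 genes in osteoclasts with fewer than 5 (low) and at least 5 (high) cell cycle UMIs after thinning, joined within each of the 6 libraries, CON in blue and CKO in orange. Lines of Acp5, Ctsk, Mmp9, Atp6v0d2, Ocstamp, Dcstamp and Csf1r fall in all libraries, whereas Tnfrsf11a rises in CKO1 and CKO2 and Nfatc1 rises in CON1.

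Within each library, the level of every gene was correlated over osteoclasts with the summed level of the 3 fusion genes, as a description, since the 3 fusion genes are themselves genes of the rule and depth acts on all of these values. Among 6620 genes with a UMI in at least 20% of osteoclasts of each library, 2377 had the same sign in all 6 libraries. The highest median Spearman's rho were those of Acp5 (0.82) and Ctsk (0.80), which the rule used, and of Atp6v0c (0.77), Atp6v1d (0.76) and 1110008P14Rik (0.73). Next came Atp6v1e1, Snx10, Ckb and Mmp9 (all 0.71). The lowest were Lamp1 (-0.57), Ly6e (-0.55), Tmsb10 (-0.55), Tubb5 (-0.55) and Fabp5 (-0.54), followed by Stmn1 (-0.54), which destabilises microtubules and marks dividing cells.

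Osteoclasts carried more RNA per barcode than macrophages. Their median was 42269, 19963 and 16530 UMIs in CON and 37432, 23888 and 27120 UMIs in CKO, between 2.05 and 3.05 times that of C1q macrophages of the same library. The rule asks for a minimum number of UMIs and so favours deep barcodes. At the edge of the rule, 119 osteoclasts had 5 or 6 fusion gene UMIs and 119 barcodes outside it had 3 or 4 with enough Acp5 and Ctsk. Mmp9 was at 667 CPM inside and 550 CPM outside this limit, and the sum of C1qa, C1qb and C1qc at 1283 and 1708 CPM. For Acp5 and Ctsk, 51 members with 20 to 29 UMIs had Mmp9 at 219 CPM, and 59 barcodes with 10 to 19 had it at 83.6 CPM, with C1q sums of 1593 and 3999 CPM. The members near either limit had lower Mmp9 than the class as a whole and held C1q transcripts.

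Whether the callus of CKO mice held another number of osteoclasts was asked over the 6 libraries. Osteoclasts made up 2.26%, 1.66% and 4.64% of filtered barcodes in CON and 1.54%, 8.77% and 4.35% in CKO. The exact 95% binomial intervals, which cover counting error only, ran from 1.01% to 2.24% in CKO1 and from 8.17% to 9.41% in CKO2. Means were 2.85% ± 1.58 and 4.89% ± 3.65 (SD, n = 3 libraries each), a difference of 2.03 percentage points (exact permutation test, two-sided, p = 0.7, where 0.1 is the smallest p that 3 against 3 can give). Without CKO2 the difference was 0.089 percentage points, and without CKO3 it was 2.30. Per 100 C1q macrophages there were 66.7, 35.6 and 63.9 osteoclasts in CON and 22.2, 80.9 and 60.8 in CKO, with means of 55.4 ± 17.2 and 54.6 ± 29.8 (SD, n = 3; exact permutation test, two-sided, p = 1). That difference was -3.87 without CKO3, and 15.4 without CKO1. The spread among CKO libraries exceeded the difference between the groups in both measures. CKO1 and CKO2 were the lowest and the highest of all libraries in both. The number of cells loaded per library and the digestion set such shares too, and their part was not tested.

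**Figure D4:**
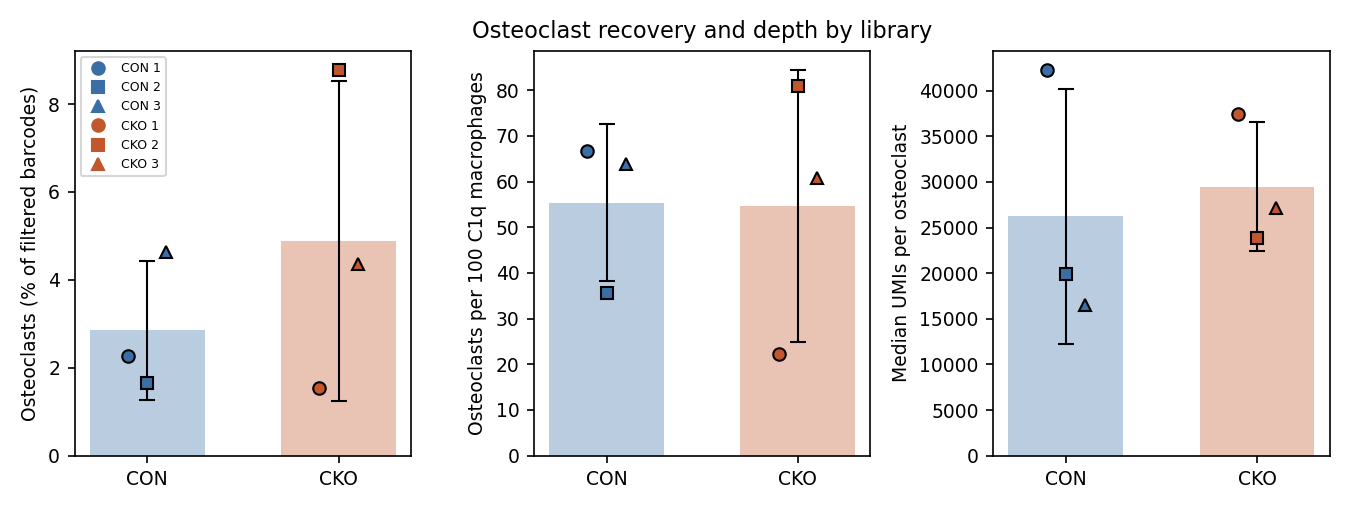
Osteoclasts as a percent of filtered barcodes, per 100 C1q macrophages, and median UMIs per osteoclast, with each library as a point, the mean as a bar from 0 and the SD as an error bar (n = 3 libraries per group). CKO1 (1.54%) and CKO2 (8.77%) lie on opposite sides of the CON libraries in the left panel.

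The median UMI count per osteoclast was 26254 ± 13975 in CON and 29480 ± 7074 in CKO (SD, n = 3; exact permutation test, two-sided, p = 0.7), and the difference of 3226 was 4406 without CKO3 and -751 without CKO1. The share of osteoclasts with any cell cycle UMI after thinning was 60.4% ± 3.14 in CON and 57.2% ± 19.7 in CKO (SD, n = 3; exact permutation test, two-sided, p = 1), and before thinning it was over 88% in every library. By the same measure the share was 60.0%, 56.1% and 59.2% in CON and 43.6%, 64.1% and 66.0% in CKO macrophages, and 78.6% to 90.2% in neutrophils, so that 1 UMI does not mark a dividing cell. CKO1, at 34.6%, carried the lower CKO mean, and without it CKO was higher by 8.01 percentage points (exact permutation test, two-sided, p = 0.2). Without CKO3 the difference was -10.3 percentage points.

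Which genes of the osteoclast differed between CKO and CON was tested on the UMIs summed over osteoclasts in each library. None of 11688 genes (0%) passed a Benjamini-Hochberg adjusted p of 0.05 by the quasi-likelihood test of edgeR, while 426 (3.64%) had an unadjusted p below 0.05. Without CKO1 the latter count was 1836 and without CKO3 it was 309, again with 0 genes past the adjusted threshold. DESeq2 called 2 genes, Ramp1 and Phex, both higher in CKO, and had 368 below an unadjusted p of 0.05. With the replicate number as a block, edgeR called 2 genes, Igkc and Jchain, both lower in CKO. Without a filter on low counts it called 23. The 6 marker genes had log2 fold changes of 0.43 (Acp5), 0.08 (Ctsk), -0.17 (Atp6v0d2), 0.09 (Ocstamp), 0.13 (Dcstamp) and 0.01 (Mmp9), with SEs from 0.22 to 0.36. Without CKO3 they were 0.43, -0.02, -0.22, 0.13, 0.0058 and 0.17 in the same order. Leaving out each library in turn, Acp5 ranged from 0.25 (without CON1) to 0.58 (without CON3), Atp6v0d2 from -0.29 (without CON1) to -0.06 (without CON2) and Ocstamp from 0.01 (without CKO1) to 0.25 (without CON2). With osteoclasts that carried another cell type's UMIs removed, Acp5 was at 0.71. None of the 16 resorption genes, 18 pump subunits or 13 fusion genes tested had an unadjusted p below 0.05. Acp5, Ctsk, Atp6v0d2, Ocstamp and Dcstamp chose the cells by a number of UMIs, in libraries of unlike depth. Their fold changes are therefore given as values only. The other genes of these lists were not shown to differ at this precision. Values of CKO and CON did not overlap for 308 genes higher in CKO (2.64%) and 685 genes lower in CKO (5.86%).

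None of the transcription factors of the osteoclast passed the test. Of 19, 13 had a log2 fold change below 0 and 6 above 0, and the list's median was -0.29 against 0.01 over all genes tested. An unadjusted p below 0.05 with a lower level in CKO was found for 3, beside 162 of all 11688 genes. The groups did not overlap for 3, all lower in CKO, beside 5.86% of all genes. These were Nfatc1, Mitf and Prdm1, with log2 fold changes of -0.63 ± 0.23, -0.57 ± 0.20 and -0.62 ± 0.22 (SE; unadjusted p = 0.028, 0.023 and 0.025, adjusted p = 0.9997 in edgeR). The counts behind Nfatc1 were 1483, 1853 and 4037 UMIs in CON and 379, 7952 and 3413 in CKO. Leaving out any library kept the log2 fold change of Nfatc1 between -0.71 and -0.51. Without CKO3 the values of Nfatc1, Mitf and Prdm1 were -0.67, -0.51 and -0.50. With osteoclasts that carried another cell type's UMIs removed, they were -0.39, -0.29 and -0.36. Tnfrsf11a had -0.45 ± 0.19, Src -0.50 ± 0.23 and Tfrc -0.73 ± 0.23, and all 3 were lower in every CKO library than in every CON library. Without CKO3 these were -0.52, -0.39 and -0.73, and with the same osteoclasts removed -0.25, -0.25 and -0.52. The lists that hold these genes did not all go the same way. Of the 12 receptor genes tested 8 had a log2 fold change above 0, with a median of 0.25, and Tnfrsf11a was the 1 with an unadjusted p below 0.05. In this list the groups did not overlap for 1 gene higher in CKO and 1 lower, Tnfrsf11a, beside 2.64% and 5.86% of all genes. Of 15 iron and lysosome genes, the list of Tfrc, 12 were above 0, with a median of 0.32, and the groups did not overlap for 3 higher and 1 lower in CKO, beside 2.64% and 5.86% of all genes. Of 22 adhesion genes, the list of Src, 8 were above 0, with a median of -0.05, and the groups did not overlap for 2, lower in CKO. Of 14 kinases and adaptors 3 were above 0, with a median of -0.12, and none had an unadjusted p below 0.05. The groups did not overlap for 2 of these 14, lower in CKO, again beside 5.86% of all genes. Ccr3, a chemokine receptor, and H2-Ab1, of MHC class II, had -1.04 ± 0.34 and -0.60 ± 0.21, and -1.07 and -0.69 without CKO3. Of the 12 chemokine and receptor genes, the list of Ccr3, 7 were above 0, with a median of 0.04. Of 5 MHC class II genes, the list of H2-Ab1, none was above 0, with a median of -0.69. The groups did not overlap for 2 of these 5, lower in CKO, beside 5.86% of all genes. Over the main fit and its alternatives, H2-Ab1 ranged from -1.15 to -0.42. H2-Ab1 was also lower in CKO than in CON macrophages, at 435, 746 and 720 against 1757, 1569 and 1534 CPM. No member of these lists passed the adjusted threshold in any direction.

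**Figure D5:**
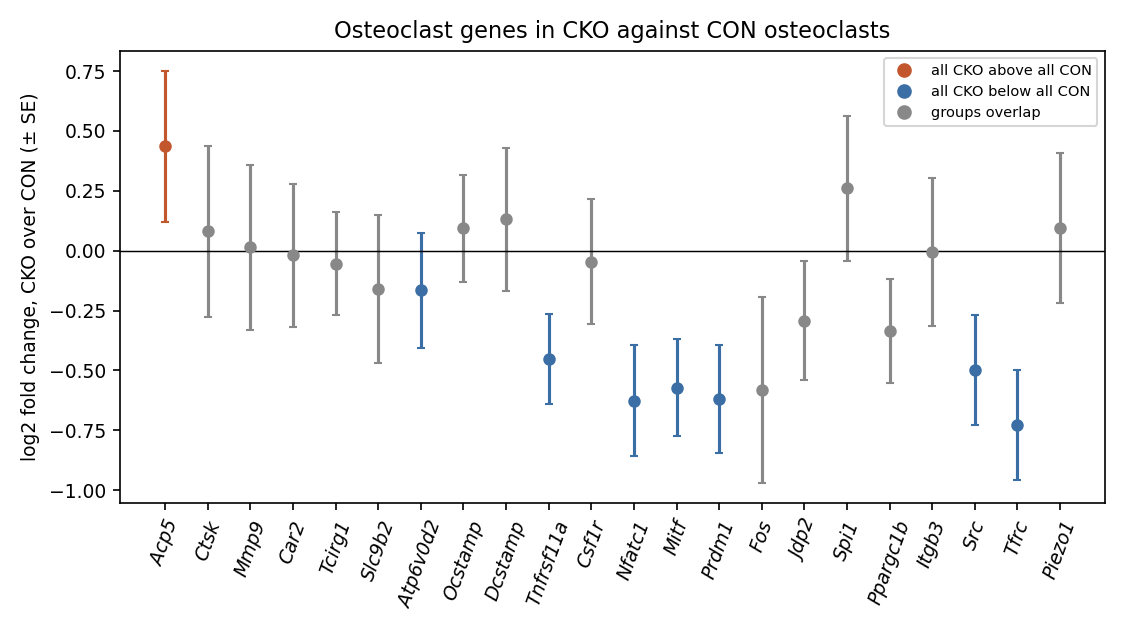
Log2 fold change of CKO over CON with its SE for 22 osteoclast genes, from edgeR's quasi-likelihood fit over 6 libraries; blue marks genes with all CKO below all CON values, orange the reverse, grey overlapping groups. Nfatc1, Mitf, Prdm1 and Tfrc lie at -0.57 or below, and none of the 22 passed an adjusted p of 0.05.

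The genes with the smallest p in the CKO direction were Ramp1, Marcksl1, Rhoc, Phex and Fabp3. None passed the adjusted threshold in the main fit (adjusted p = 0.9997 for each in edgeR), while DESeq2 called Ramp1 and Phex. Without the filter on low counts, edgeR's quasi-likelihood test called Ramp1, Phex and Fabp3 (adjusted p = 0.0049, 0.0085 and 0.032). It also called mt-Nd6, lower in CKO (adjusted p = 0.031). Ramp1, a partner of the calcitonin receptor family that forms the receptor for CGRP, was at 13.3, 3.63 and 6.59 CPM in CON and 36.7, 40.9 and 29.3 CPM in CKO osteoclasts, a log2 fold change of 2.30 ± 0.39 (SE). Marcksl1 was at 20.4, 22.6 and 19.3 CPM in CON and 56.1, 49.9 and 34.6 CPM in CKO (1.21 ± 0.21). Rhoc, a small GTPase, had a log2 fold change of 1.09 ± 0.21, with 43.8, 37.9 and 38.1 CPM in CON and 72.3, 78.1 and 90.3 CPM in CKO. Fabp3, a fatty acid carrier, was at 1.77, 2.82 and 1.61 CPM in CON and 19.4, 11.9 and 5.51 CPM in CKO. Phex, a gene of osteoblasts and osteocytes on the X chromosome, was at 0 to 2.66 CPM in CON and 9.64 to 17.4 CPM in CKO. All 5 were lower in osteoclasts than in the remaining filtered barcodes. The median log2 ratios were -2.40 (Ramp1), -1.76 (Marcksl1), -1.94 (Rhoc), -2.07 (Phex) and -2.02 (Fabp3). Ramp1 had a median of 107 CPM in neutrophils and 45.7 CPM in macrophages. Counts in CON osteoclasts were as low as 9 UMIs for Ramp1, 4 for Fabp3 and 0 for Phex. In the other direction the smallest p belonged to Gm36638, P2ry10b, 9330162G02Rik, Gm37642 and mt-Nd6, with log2 fold changes of -1.95, -1.05, -1.26, -1.70 and -1.56. The mitochondrial gene mt-Nd6 was at 34.5, 85.5 and 61.3 CPM in CON and 19.4, 19.9 and 19.5 CPM in CKO, and it lies on the strand opposite to the other mitochondrial protein genes. Without CKO3 the log2 fold changes of Ramp1, Marcksl1, Rhoc, Phex and Fabp3 were 2.40, 1.37, 0.95, 3.73 and 2.90, and those of the 5 lower genes -1.72, -1.03, -1.20, -1.56 and -1.59. Over the main fit and its alternatives, Ramp1 ranged from 1.73 to 2.78, Marcksl1 from 0.72 to 1.37 and Rhoc from 0.81 to 1.24. Phex ranged from 2.66 to 4.43 and Fabp3 from 1.70 to 2.90.

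Transcripts of other cell types were present in osteoclasts at levels that differed between libraries. All 10 osteoblast genes had a log2 fold change above 0 in CKO osteoclasts, 7 with an unadjusted p below 0.05, and the median was 2.40. Over all 11688 genes tested, 5932 were above 0, 264 were higher with an unadjusted p below 0.05, and the median was 0.01. The groups did not overlap for 1 of the 10, Phex, beside 2.64% of all genes higher in CKO. Their sum in osteoclasts was 1646, 2407 and 3495 CPM in CON and 14246, 4290 and 4353 CPM in CKO, with Spp1 the most abundant. In neutrophils, which should lack most of them, it was 1152, 1749 and 1814 CPM in CON and 4457, 5794 and 7901 CPM in CKO, so that the groups overlapped in neither class. The sum overlapped between groups in macrophages (4504, 2756 and 6159 CPM in CON and 7749, 4334 and 5514 CPM in CKO) and in the remaining barcodes (13905, 4425 and 17056 CPM in CON and 14394, 17594 and 20465 CPM in CKO). All 15 C1q macrophage genes tested were also above 0, 4 with an unadjusted p below 0.05, with a median of 1.72. In the sum of the list only CKO1 was high: it was 2293, 1611 and 1731 CPM in CON and 9790, 1557 and 1455 CPM in CKO osteoclasts, and CKO2 and CKO3 were below every CON library. Collagen and other stromal genes reached 17629 CPM in CKO2 osteoclasts against 1894 to 6084 CPM in the other libraries. All 9 chondrocyte genes had a log2 fold change above 0, with a median of 0.67, and none had an unadjusted p below 0.05. Their sum, led by Col2a1, stood at 155 to 8079 CPM without an order by group. Neutrophil genes stood at 82.4, 3290 and 1004 CPM in CON and at 213, 2919 and 1764 CPM in CKO. All 7 endothelial genes had a log2 fold change above 0, with a median of 1.00 and sums of 66.9, 91.2 and 86.1 CPM in CON and 25.9, 188 and 172 CPM in CKO. B lineage genes were at 8.63 to 35.7 CPM in sum and T and NK genes at 17.9 CPM or less. The part of these cells' RNA in the differences above was not tested.

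Finally, the effect of CKO in osteoclasts was compared with that in C1q macrophages of the same libraries. None of 12891 genes (0%) differed at an adjusted p of 0.05 in edgeR's quasi-likelihood test of the interaction, 500 (3.88%) had an unadjusted p below 0.05, and DESeq2 called none and had 272 below an unadjusted p of 0.05. The smallest p belonged to Cytip, Saa1, Mef2c, Ltf and Irf7. Mef2c, a transcription factor of muscle and bone, was at 55.8, 33.9 and 25.6 CPM in CON and 76.6, 114 and 101 CPM in CKO osteoclasts. In macrophages it was at 243, 132 and 116 CPM in CON and at 169, 213 and 252 CPM in CKO. For Nfatc1 the log2 fold change in osteoclasts minus that in macrophages was -0.55 ± 0.20 and for Tfrc -0.92 ± 0.21 (SE; adjusted p = 0.9996 and 0.884 in edgeR). Neither passed the threshold, and the count of genes past it was 5 without CKO1 and 0 without CKO3.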

How the data were processed

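Single-cell RNA-seq counts of callus cells were deposited for 6 libraries, 3 per group, as UMI counts per gene and barcode that the authors made from 10x 3′ libraries. Per the file headers, Cell Ranger 6.1.1 was used for number 1 of both groups and 6.1.2 for the others. The submitters' processing notes name GRCm38. Number 3 of both groups was counted on another gene list, so libraries were joined on 52081 shared Ensembl identifiers, and coordinates are from GENCODE vM21 (GRCm38). Members and gene lists were chosen with earlier results of these data known. Barcodes needed at least 2000 UMIs and at most 10% mitochondrial UMIs. Counts were summed per library and class, and CPM are counts per 1000000 of those barcodes. CKO and CON were compared with edgeR 4.0.16 (filterByExpr, TMM, quasi-likelihood test, Benjamini-Hochberg adjusted p of 0.05), the effect in osteoclasts and macrophages with an interaction term and the library as a block, and single values with exact permutation tests. Callus was taken from each mouse per the labels, but the number of mice is given differently in different places of the study, so that n counts libraries. DESeq2 1.42.0 was an alternative. The named genes were the 15 highest and 15 lowest over macrophages with at least 50 CPM in the higher class and past a log2 ratio of 1 in every library, the 5 of smallest p in each direction and for the interaction, and the members of the lists. Doublets were not removed in the main values. Removal by Scrublet score and removal of osteoclasts with UMIs of another type were alternatives. On simulated data for the comparison of CKO and CON in osteoclasts (11382 genes), 10 of 100 genes changed 2-fold and 93 of 100 changed 4-fold were recovered, with 3 false calls. Simulated interactions (12558 genes) gave 1 and 34 of 100, with 2 false calls. Libraries held 57626530 to 103784364 UMIs, and intervals and limits from counts cover counting error only. One gene of the lists is not reported here.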

Additional observations from a re-analysis of the deposited data

How the results depend on the processing

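With 3 libraries per group no permutation test could fall below 0.1, and the p-values say nothing of stability. The osteoclast share kept its direction under every alternative (0.0885 to 3.71 percentage points on leaving out 1 library). The difference per 100 C1q macrophages ran from -13.9 to 15.4 on leaving out 1 library, and was 21.1 without number 1 and 0.399 without number 3 of both groups. Median UMIs ran from -1636 to 11233, with -456 without number 3 of both groups. The share with any cell cycle UMI ran from -10.3 to 8.01 percentage points, with 1.87 at 5 or more UMIs and 9.79 without number 1 of both groups. The last 2 kinds of alternative were chosen after seeing the data. The count of genes that differed between CKO and CON was 2 with the replicate block (Igkc and Jchain, lower in CKO), 2 in DESeq2 and 23 without a filter on low counts, and 0 on leaving out any library, although 1836 genes had an unadjusted p under 0.05 without CKO1. Same-numbered libraries correlated by 0.227, -0.0482 and 0.167 in their deviations. CKO1 correlated best with CON1 and CKO3 with CON3, but CKO2 also correlated best with CON3 (0.314), so that the numbers paired the libraries only in part. Number 1 of both groups shared a Cell Ranger version, and number 3 of both shared a gene list. The replicate block changed no other call. For the interaction the count was 153 without the filter, 2 without number 1 of both groups and 0 to 5 on leaving out 1 library, with 5 without CKO1. Against macrophages, 139 genes were higher and 186 lower with a pseudocount of 10 CPM, 576 and 776 against macrophages with no cell cycle UMI (4 libraries), 50 and 55 past a log2 ratio of 2, and 363 and 746 with stricter members. Leaving out 1 library gave 264 to 337 higher and 392 to 737 lower, the last without CKO1. The log2 fold change of Ctsk was -0.10 without number 1 of both groups (-0.18 to 0.30 on leaving out 1 library), of Atp6v0d2 0.0060 without osteoclasts carrying another type's UMIs, of Ocstamp -0.060 without number 1, and of Dcstamp -0.17 without number 3 (-0.046 to 0.38). That of Mmp9 was -0.10 at 500 UMIs and 20% mitochondrial UMIs, -0.0091 without TMM and -0.33 without number 1 (-0.18 to 0.32), and that of Piezo1 was -0.28 without number 1 (-0.23 to 0.32). The cause of these changes was not tested.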
